A study of Mus musculus with 51 samples.

Results

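The 7 libraries described here are those of *Smchd1 matΔ* (maternal null) mouse embryonic stem cells (mESCs) on their way to neuromesodermal progenitors (NMPs), 3 harvested at day 2.5 and 4 at day 3 of differentiation, out of 51 samples in the series. The rule that chose them used genotype and day alone and no measured value, though earlier results of these data were known. Every one of the 39 *Hox* genes and 34 pluripotency and differentiation factors in the deposited tables was followed gene by gene. The cells are male, of a C57BL/6/Cast F1 background, and carry the genotype Smchd1[del/+]: Zp3-Cre, which is active in the growing oocyte, deleted the maternal allele, so the egg supplied no SMCHD1 while the paternal allele is intact. Both days share FGF from the start of differentiation and the Wnt pathway activator CHIR99021 from day 2, so that day 2.5 follows 12 h and day 3 follows 24 h of CHIR99021. GDF11 had not been given at either day. Control libraries, used in 1 comparison, are Smchd1[fl/+] cells (*Smchd1 wt*) at the same days, 4 at each. The labels place the 3 day 2.5 libraries in line 1, as they do day 3 replicates 1 to 3, and day 3 replicate 4 in line 2, whereas the study's methods describe technical replicates of separate mESC lines at both days. The p-values therefore measure the spread between these libraries, which may be technical.

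*Hox* genes encode homeodomain transcription factors that give positional identity along the head to tail axis. They lie in 4 clusters (*HoxA* to *HoxD*) and are numbered by paralogue, low numbers for the genes that are switched on first and act in the neck and hindbrain, middle numbers for the trunk, high numbers for the tail end. Wnt signalling starts this sequence in posterior progenitors, partly through the CDX homeodomain factors and T (Brachyury). CHIR99021 mimics that signal by inhibiting GSK3, which otherwise marks β-catenin for destruction. The step from day 2.5 to day 3 is the second 12 h of Wnt activation, and the comparison asks which genes differed between those harvests in cells without maternal SMCHD1.

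Promoter sequence is shown for a pair of trunk genes that rose (*Hoxa7* and *Hoxb8*), for an early gene that did not pass the test (*Hoxb1*) and for *T*, since the letters bound by CDX and by the Wnt effectors TCF and LEF can be looked for in them. The lines below give RefSeq sequence of GRCm38.p6 that ends at the start site or at the first annotated exon base upstream of it, 5′ to 3′ on the strand of the gene. The intervals are chr6:52218712-52218823 (minus strand, *Hoxa7*, 112 bases that lie inside the gene as GENCODE draws it, in an intron of its longest transcripts), chr11:96281655-96281904 (plus strand, *Hoxb8*, 250 bases), chr11:96365508-96365751 (plus strand, *Hoxb1*, 244 bases) and chr17:8434173-8434422 (plus strand, *T*, 250 bases). Capitals mark the CDX core TTTATG, the TCF/LEF core CTTTGA, or the reverse complement of either.
Hoxa7: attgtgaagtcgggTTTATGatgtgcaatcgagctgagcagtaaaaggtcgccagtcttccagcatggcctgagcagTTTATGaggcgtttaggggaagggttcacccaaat
Hoxb8: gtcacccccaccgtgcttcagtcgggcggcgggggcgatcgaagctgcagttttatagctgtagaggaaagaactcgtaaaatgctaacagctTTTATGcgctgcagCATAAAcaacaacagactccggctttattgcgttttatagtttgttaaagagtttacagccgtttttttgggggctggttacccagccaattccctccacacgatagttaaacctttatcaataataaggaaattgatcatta
Hoxb1: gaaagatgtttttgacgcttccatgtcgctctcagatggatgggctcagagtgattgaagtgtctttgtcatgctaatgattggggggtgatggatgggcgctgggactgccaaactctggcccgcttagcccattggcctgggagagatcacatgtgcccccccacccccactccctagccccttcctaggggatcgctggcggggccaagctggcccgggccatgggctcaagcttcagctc
T: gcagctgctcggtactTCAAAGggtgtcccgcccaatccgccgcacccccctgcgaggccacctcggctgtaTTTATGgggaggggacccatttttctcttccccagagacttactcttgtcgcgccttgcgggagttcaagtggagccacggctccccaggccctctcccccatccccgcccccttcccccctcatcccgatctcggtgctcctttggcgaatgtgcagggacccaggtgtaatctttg
Both motifs were counted on both strands in windows of 300 bases, 250 before and 50 after the start, and no match overlapped another. RefSeq windows were matched for 22 *Hox* genes (24 windows), among them 5 of the 10 called genes with reads that are described below. *Hoxc5*, *Hoxc6*, *Hoxb7*, *Hoxc8* and *Hoxb9* were not matched. Of the 24 windows, 5 held the CDX core, namely those of *Hoxa7*, *Hoxb8*, *Hoxd3*, *Hoxd4* and *Hoxd11*, where 11.9% of all 32851 windows did. Among the called genes with a window, *Hoxa9* and *Hoxd9* did not hold it, and *Hoxd3* and *Hoxd11* held it without a call. A link between the core and a rise was not tested. The TCF/LEF core was found in 4 of the 24 (*Hoxa10*, *Hoxa11*, *Hoxd8* and *Hoxd12*), where 16.0% of all windows held it. *T* held both. A match is a description of the letters and not a binding site.

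The unit throughout is log2 RPKM, reads per kilobase of exon scaled to the size of the library, on a log2 scale, and a difference of 1 is a doubling. Errors of differences are standard errors. Whole reads could be read back from every value: each of the 511 values of the 7 libraries (73 genes) was a whole number of reads, within 0.02 of a read, or the value the software gives a gene without reads. The depth implied in this way was 31836388, 43294575 and 28200610 reads in day 2.5 replicates 1 to 3. At day 3 it was 43787727 reads in replicate 1 and 7219616, 6297623 and 3479737 in replicates 2 to 4. Depth and day are thus partly aligned, since day 3 replicates 2 to 4 are the shallowest of the 7 libraries and day 3 replicate 1 is the deepest. In the day 3 libraries 5, 6, 9 and 10 *Hox* genes had no read, against 6, 5 and 3 at day 2.5. The labels name a stranded and a non-stranded kit without saying which library had which, so reads of antisense transcripts cannot be told apart from those of the *Hox* genes they overlap.

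Day 2.5 replicate 3 stood apart from the other 2 libraries of its day. It had the lowest value of its group for 28 of the 34 factors and the highest for 22 of the 33 *Hox* genes with at least 10 reads over the 7 libraries. *Ctnnb1*, which encodes β-catenin and is on in nearly all cells, was 4.77 log2 RPKM in it against 7.49 and 7.47 in replicates 1 and 2. *Pou5f1*, the pluripotency factor OCT4, was 4.42 against 8.59 and 8.13. It is 1 of 3 time course libraries whose labels are written in another form, and those 3 lie between 4.52 and 4.77 for *Ctnnb1*, below 41 of the 42 other libraries. Results are given with and without it where it matters, and its part in them was not otherwise tested.

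Trunk *Hox* genes were higher at day 3. Limma's test on the 39 *Hox* genes called 14 at an adjusted p below 0.05, every one higher at day 3 (35.9% of those tested) and none lower. In such bulk libraries fewer expressing cells and less RNA per cell cannot be told apart. Of those 14, 10 had at least 10 reads over the 7 libraries, and 9 of these 10 belong to *Hox5* to *Hox9*: *Hoxc5*, *Hoxc6*, *Hoxa7*, *Hoxb7*, *Hoxb8*, *Hoxc8*, *Hoxa9*, *Hoxb9* and *Hoxd9*. The tenth was *Hoxd4*. The other 4 calls, *Hoxd10*, *Hoxc11*, *Hoxc12* and *Hoxd12*, rested on no more than 2 reads each and are taken up separately. In 10 *Hox* genes (25.6%) every day 3 library was above every day 2.5 library.

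**Figure D1:**
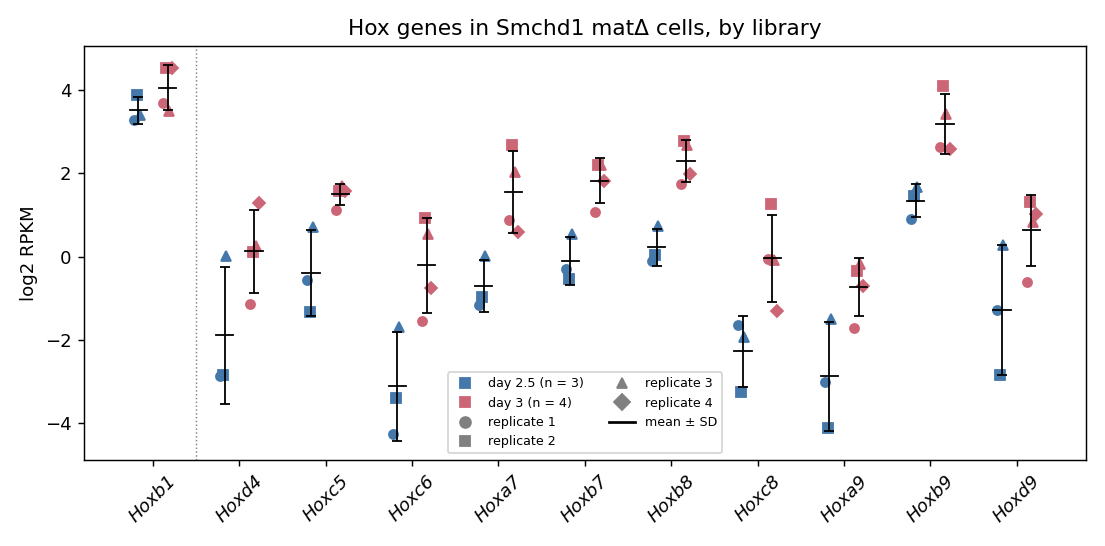
Log2 RPKM (y axis) of *Hoxb1* and the 10 called *Hox* genes with at least 10 reads (x axis) in each *Smchd1 matΔ* library, blue for day 2.5 (n = 3) and red for day 3 (n = 4), with symbols for the replicate number, horizontal lines for the mean and bars for the SD. *Hoxb1* overlaps between the days, while all red points of *Hoxc5*, *Hoxb7*, *Hoxb8* and *Hoxb9* lie above the blue ones.

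*Hoxc6*, a thoracic patterning gene on chromosome 15, had the largest difference of the *Hox* genes on the deposited scale. Its log2 RPKM was -4.26, -3.38 and -1.69 in day 2.5 replicates 1 to 3 and -1.55, 0.92, 0.54 and -0.74 in day 3 replicates 1 to 4. The lowest day 3 library lay just above the highest day 2.5 library. The difference was 2.90 ± 0.74 (SE), or 7.48-fold, with a limma adjusted p of 0.0152. It was 3.61 without day 2.5 replicate 3, 2.10 with 0.1 RPKM added and 0.78 with 1 RPKM added, where *Hoxb9* (1.52) had the largest. The reads behind it were few, 4, 10 and 21 at day 2.5 and 36, 33, 22 and 5 at day 3.

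The paralogue 7 and 8 genes of the *HoxA* and *HoxB* clusters moved by a similar amount at higher levels. *Hoxa7* was -1.16, -0.96 and 0.02 log2 RPKM at day 2.5 and 0.88, 2.68, 2.03 and 0.58 at day 3, a difference of 2.25 ± 0.70 (limma adjusted p = 0.0378). *Hoxb7* was -0.30, -0.54 and 0.56 at day 2.5 and 1.06, 2.19, 2.21 and 1.82 at day 3, a difference of 1.92 ± 0.68 (limma adjusted p = 0.0435). *Hoxb8* was -0.10, 0.04 and 0.74 at day 2.5 and 1.75, 2.78, 2.68 and 1.97 at day 3, a difference of 2.07 ± 0.67 (limma adjusted p = 0.0378). In all of these the groups did not overlap, day 2.5 replicate 3 was the highest library of its day, and day 3 replicates 2 and 3 were the highest of theirs. *Hoxa7* and *Hoxb8* are the genes whose upstream sequence is printed above with CDX core letters. Of the exon bases of *Hoxa7*, 20.4% are shared with an antisense gene, *Hoxaas3*, while *Hoxb7* and *Hoxb8* share none with another annotated gene.

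In the *HoxC* cluster, *Hoxc5* was -0.55, -1.34 and 0.72 log2 RPKM at day 2.5 and 1.12, 1.59, 1.70 and 1.57 at day 3. It shares 166 exon bases with *Hoxc10*. The day 3 libraries were the most alike of the called genes (SD 0.26), and the difference was 1.88 ± 0.69 (limma adjusted p = 0.0435). *Hoxc8*, which patterns the lower thorax, was -1.64, -3.24 and -1.93 at day 2.5 and -0.06, 1.26, -0.07 and -1.30 at day 3, a difference of 2.22 ± 0.71 (limma adjusted p = 0.0378). Its lowest day 3 library, replicate 4, rests on 4 reads and lay just above the highest day 2.5 library. *Hoxc4*, the first gene of this cluster, differed by 1.45 ± 0.68 with groups that did not overlap (-0.27, -0.21 and 0.99 against 1.18, 1.57, 2.19 and 1.54) and did not pass (limma adjusted p = 0.0794).

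Paralogue 9 genes, the most posterior with a call that rests on reads, came next. *Hoxb9* was the most abundant called gene, at 0.90, 1.45 and 1.66 log2 RPKM at day 2.5 and 2.62, 4.09, 3.42 and 2.59 at day 3, with 153 to 305 reads in each day 2.5 library. The groups did not overlap and the difference was 1.84 ± 0.68 (3.58-fold; limma adjusted p = 0.0435). *Hoxa9* was -3.01, -4.11 and -1.49 at day 2.5 and -1.70, -0.33, -0.18 and -0.69 at day 3, a difference of 2.14 ± 0.71 (limma adjusted p = 0.0382), or 2.83 without day 2.5 replicate 3. Here day 2.5 replicate 3 lay above day 3 replicate 1, so the groups overlapped. *Hoxd9* was -1.28, -2.83 and 0.28 at day 2.5 and -0.62, 1.30, 0.84 and 1.01 at day 3 (1.91 ± 0.74; limma adjusted p = 0.0435), with the same overlap and a difference of 2.69 without day 2.5 replicate 3. In *Hoxc9* the groups did not overlap but the difference of 1.27 did not pass (limma adjusted p = 0.134).

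*Hoxd4* was the only gene of *Hox1* to *Hox4* called on the deposited values with all libraries. It was -2.85, -2.83 and 0.01 log2 RPKM at day 2.5 and -1.13, 0.11, 0.24 and 1.29 at day 3, a difference of 2.02 ± 0.75 (limma adjusted p = 0.0435). Day 2.5 replicate 3 lay above day 3 replicate 1, and 388 of its exon bases are shared with *Hoxd3*, 1154 (39.1%) with Gm28230 on the same strand and 347 with the antisense gene *Hoxd3os1*, so the reads of these neighbours cannot be fully separated. Its call was lost with 0.1 RPKM added (limma adjusted p = 0.0523) and with limma voom (adjusted p = 0.0548), and without day 2.5 replicate 3 the difference was 2.97. *Hoxa3* was -1.77, -0.41 and -0.20 at day 2.5 and 0.14, 1.70, 1.11 and 0.52 at day 3. Its groups did not overlap, and the difference of 1.66 ± 0.69 missed the threshold (limma adjusted p = 0.0523) but passed with 0.1 RPKM added (0.0249), with voom (0.0201) and with the replicate block (0.0256).

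*Hoxb1*, a paralogue 1 gene of the hindbrain that opens the sequence in its cluster, was already abundant at day 2.5. It was 3.27, 3.87 and 3.39 log2 RPKM at day 2.5 and 3.69, 4.52, 3.49 and 4.53 at day 3, a difference of 0.55 ± 0.67 (limma adjusted p = 0.533). The groups overlapped. *Hoxd1*, at the front of its cluster, was lower, at -0.08, -1.08 and 0.48 against 0.36, 0.34, 1.58 and 1.11, and its difference of 1.08 ± 0.69 did not pass (limma adjusted p = 0.206).

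Grouped by position, the median difference was 1.07 over the 12 *Hox1* to *Hox4* genes (1 called), 1.88 over the 15 *Hox5* to *Hox9* genes (9 called) and 0.90 over the 12 *Hox10* to *Hox13* genes (4 called, each with 2 reads or none), beside 1.31 over all 39. The posterior median includes listed values of genes without reads, which follow depth. It was 0 with a common floor and 0.37 with 0.1 RPKM added, beside 0.99 and 0.78 over all 39, while *Hox5* to *Hox9* stood at 1.88 and 1.61. All 27 *Hox1* to *Hox9* genes had a positive difference. From *Hox2* to *Hox9*, in order of paralogue, the medians were 0.35, 1.64, 1.34, 1.08, 1.68, 2.08, 2.07 and 1.88, each over 2 to 4 genes. The median of the *Hox1* to *Hox9* genes was -1.16, -0.96 and 0.16 log2 RPKM in the day 2.5 libraries and 0.14, 1.49, 1.11 and 1.01 in the day 3 libraries. Day 2.5 replicate 3 and day 3 replicate 1 thus met in the middle.

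**Figure D2:**
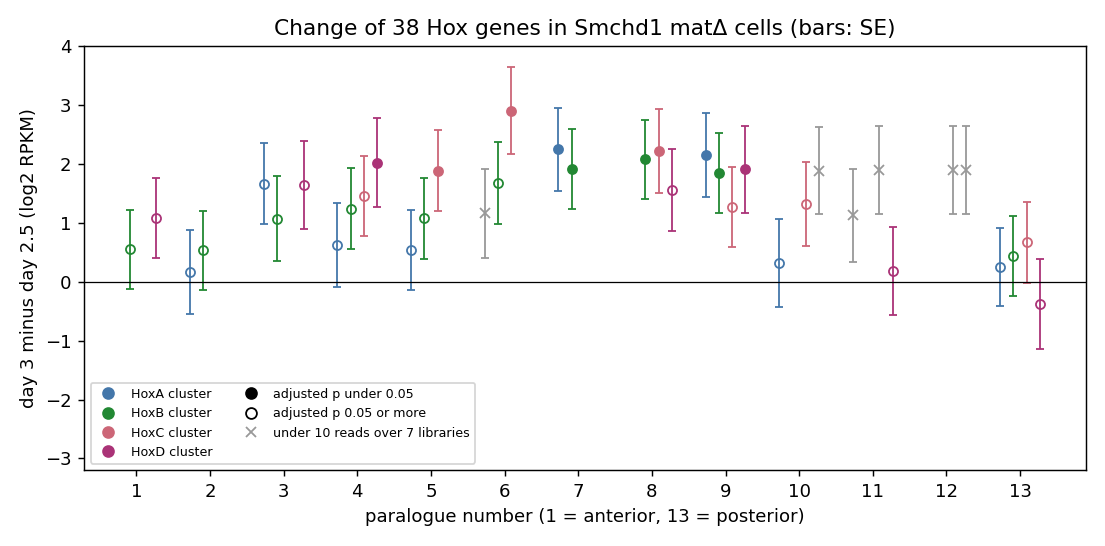
Difference in log2 RPKM between day 3 and day 2.5 (y axis, bars are the SE) of 38 of the *Hox* genes by paralogue number (x axis), coloured by cluster, filled where the limma adjusted p was under 0.05, with grey crosses for genes with fewer than 10 reads over the 7 libraries. Filled points lie at paralogues 4 to 9, and the crosses at 1.88 and 1.89 are genes with 2 reads or none.

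Posterior genes gave no call that rests on reads. *Hoxc11*, *Hoxc12* and *Hoxd12* had no read in any of the 7 libraries, yet each was listed 1.89 higher at day 3, with a limma adjusted p of 0.0435. *Hoxc11*, for example, was listed at -6.16, -6.60 and -5.98 log2 RPKM at day 2.5 and -6.62, -4.02, -3.82 and -2.97 at day 3. These values order the libraries exactly by depth, because a gene without reads is listed at what 0.9 of a read would give in that library. *Hoxd10*, with 2 reads in all, was listed 1.88 higher. When all values under that of 1 read in the shallowest library were raised to it, the difference of *Hoxc11*, *Hoxc12* and *Hoxd12* became 0. In the shallowest library a count of 0 allows up to 3 reads, or 0.427 RPKM for *Hoxc11*, a limit that covers counting error only. Expression below it was not detectable in that library. The limit is lower in the deeper libraries of both days, which also held no read of these genes.

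**Figure D3:**
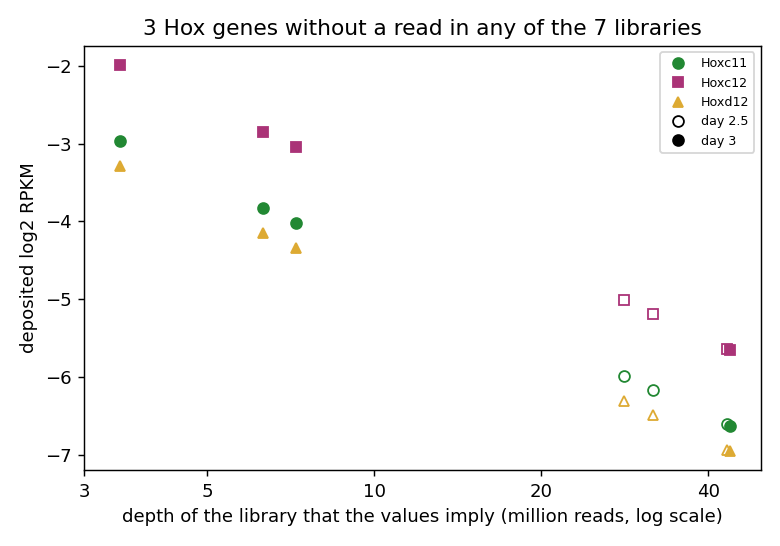
Deposited log2 RPKM (y axis) of *Hoxc11*, *Hoxc12* and *Hoxd12* against the implied depth of the library (x axis, log scale), open symbols for day 2.5 and filled symbols for day 3. None of these genes had a read, and the listed values fall from the 3 shallow day 3 libraries (3479737 to 7219616 reads) to the deep ones.

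The last genes of the clusters were low on both days and none passed. *Hoxa13* was -2.39, -2.35 and -2.80 log2 RPKM at day 2.5 and -2.85, -2.16, -1.96 and -2.10 at day 3, a difference of 0.25 ± 0.66. *Hoxb13* was -3.81, -3.41 and -4.37 against -2.69, -3.99, -3.95 and -3.09 (0.43 ± 0.68). Its reads were 5, 9 and 3 at day 2.5 and 15, 1, 0 and 0 at day 3, so the last 2 values follow depth. With a common floor its difference was 0.06. *Hoxc13* was -2.38, -1.24 and -1.21 against -1.84, -0.34, -0.49 and -1.10 (0.67 ± 0.68). All 3 overlapped between the days. *Hoxd13* was the only *Hox* gene with a lower mean at day 3, by -0.38 ± 0.77 (limma adjusted p = 0.715), from -0.81, -0.26 and -1.04 log2 RPKM to -1.04, 1.19, -1.38 and -3.11, the widest spread among the day 3 libraries of these last genes.

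The calls depended on the scale and on single libraries. With the replicate number as a block, a fit in which day 3 replicate 4 has no partner and adds nothing to the difference, limma called 12 genes. *Hoxa3* and *Hoxb6* were added (limma adjusted p = 0.0256 each), and *Hoxd10*, *Hoxc11*, *Hoxc12* and *Hoxd12* were lost (0.0643 each). With 0.1 RPKM added before the logarithm, which damps the values of genes without reads, 13 genes were called (33.3%), 9 of them among the 14, and none was posterior to *Hox9*. With limma voom on the recovered reads 9 were called (23.1%), 8 of them among the 14: *Hoxc5*, *Hoxc6*, *Hoxa7*, *Hoxb7*, *Hoxb8*, *Hoxc8*, *Hoxa9* and *Hoxb9*, with *Hoxa3* in addition. With a common floor for all libraries no gene was called by limma, and 12 had an unadjusted p under 0.05, while with 1 RPKM added 3 were called (*Hoxc5*, *Hoxb7* and *Hoxb8*). Leaving out day 2.5 replicate 3 raised the count from 14 to 21 (53.8%) and leaving out day 3 replicate 1 raised it to 23. Both include *Hoxd10*, *Hoxc11*, *Hoxc12* and *Hoxd12*, and *Hoxa11*, with 5 reads at day 2.5 and 0 at day 3. The 21 also hold *Hoxc10*, with 13 reads in day 3 replicate 1 and 0 in replicates 2 to 4. The 23 also hold *Hoxa6*, with 4 reads at day 2.5 and 1 at day 3. In both fits the count thus includes genes whose listed values follow depth. Without day 2.5 replicate 1, day 2.5 replicate 2, day 3 replicate 2 or day 3 replicate 3 it was 0, with 12, 10, 16 and 14 genes at an unadjusted p under 0.05, and without day 3 replicate 4, which leaves line 1 of the labels alone, it was 3 (*Hoxc6*, *Hoxa7* and *Hoxc8*). With 0.1 RPKM added, the same omissions left 6 to 18 genes called. The 18 without day 3 replicate 1 include *Hoxc12*, without a read, and *Hoxa6*, with 4 reads at day 2.5 and 1 at day 3. A gene without reads could thus still be called on that scale.

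No factor passed the test. Of the 34 pluripotency and differentiation factors, limma called 0 (0%), with 1 at an unadjusted p under 0.05, and limma voom on recovered reads also called 0, with 2 at an unadjusted p under 0.05. The median difference over all 34 was 0.16, and 20 were positive. The table holds no marker of paraxial mesoderm, neural tissue, endoderm or lateral mesoderm from the lists used here, so a share of such cells in the cultures could not be judged.

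Transcripts of *T* and *Sox2*, the pair that NMPs express together, were present on both days, while the study places NMPs at day 3. *T*, the T-box factor of the primitive streak (Tbra in the files), was 6.71, 7.01 and 5.06 log2 RPKM at day 2.5 and 6.87, 7.39, 6.22 and 7.48 at day 3, and *Sox2*, which NMPs co-express with it, was 3.60, 4.39 and 3.51 against 3.23, 4.51, 4.54 and 4.13. Both were present in every library and overlapped between the days. Their differences were 0.73 ± 0.63 for *T* and 0.27 ± 0.60 for *Sox2* (limma adjusted p = 0.936 for each). Without day 2.5 replicate 3 they were 0.13 and 0.11. At day 2, before CHIR99021, *Sox2* already averaged 5.14 ± 0.54 and *T* -2.41 ± 1.76 (SD, n = 4), so *Sox2* by itself does not mark NMPs here. Bulk values cannot show whether the same cells expressed both.

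Of the 8 measured streak and NMP genes, 7 had a higher mean at day 3 and none passed, with a median of 0.69 beside 0.16 over all factors, and 0.24 without day 2.5 replicate 3. *Wnt3a*, the Wnt ligand of the streak, had the largest factor difference, from -0.58, 1.71 and 1.13 log2 RPKM at day 2.5 to 2.05, 3.22, 1.17 and 2.09 at day 3 (1.38 ± 0.66; limma adjusted p = 0.78). *Fgf8*, a ligand made by the streak, was 1.73, 1.34 and 3.24 against 3.26, 1.67, 3.67 and 5.25 (1.36 ± 0.72; limma adjusted p = 0.78). Both spread widely and overlapped between the days.

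*Cdx2*, a caudal homeobox regulator of trunk *Hox* genes, was 5.12, 5.33 and 4.23 log2 RPKM at day 2.5 and 5.28, 5.84, 6.06 and 6.04 at day 3, a difference of 0.91 ± 0.59 (limma adjusted p = 0.936), or 0.58 without day 2.5 replicate 3. Day 3 replicate 1 lay between the day 2.5 libraries and the other 3 above them. *Wnt5b*, another Wnt ligand, was 4.69, 3.92 and 3.41 against 4.53, 4.93, 4.58 and 4.55, a difference of 0.64 ± 0.59 that fell to 0.35 without day 2.5 replicate 3. The 5 measured Wnt-responsive genes (*T*, *Cdx1*, *Cdx2*, *Axin2* and *Nkx1-2*) had a median difference of 0.55, or 0.08 without that library, and none passed.

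Core and naive pluripotency genes did not pass either, and here day 2.5 replicate 3 set signs. *Pou5f1* was 8.59, 8.13 and 4.42 log2 RPKM at day 2.5 and 7.71, 7.02, 7.01 and 7.49 at day 3. Its difference was 0.26 ± 0.75 with all libraries (limma adjusted p = 0.936) and -1.05 ± 0.47 without replicate 3 (limma adjusted p = 0.289), since replicates 1 and 2 were both above all 4 day 3 libraries. *Nanog*, at 4.71, 5.44 and 3.64 against 4.21, 4.21, 3.11 and 4.72, differed by -0.53 ± 0.63 (limma adjusted p = 0.936), or -1.01 without replicate 3.

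Among the 13 measured naive pluripotency genes, 6 had a positive and 7 a negative difference, with a median of -0.19, or -0.34 without day 2.5 replicate 3. *Klf2*, a Krüppel-like factor of the naive state, was the only factor whose groups did not overlap (2.94%): 2.98, 2.53 and 1.55 log2 RPKM at day 2.5 and 1.19, 1.39, 1.21 and 0.78 at day 3. Its difference of -1.21 ± 0.60 did not pass (limma adjusted p = 0.78), nor did the -1.61 ± 0.46 without replicate 3 (limma adjusted p = 0.0846). *Klf5*, of the same family, had the opposite sign, at 1.91, 3.00 and 2.55 against 2.52, 3.79, 3.87 and 2.86 (0.77 ± 0.61; limma adjusted p = 0.936). *Gdf3*, a Nodal-related ligand of pluripotent cells, was 3.59, 3.42 and 2.17 against 2.92, 2.41, 2.54 and 1.17 (-0.80 ± 0.63; limma adjusted p = 0.936), or -1.24 without replicate 3.

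The forkhead factor *Foxd3*, measured for the formative state, was near the floor, with 26, 22 and 1 reads at day 2.5 and 3, 0, 1 and 1 at day 3. Its log2 RPKM was -1.51, -2.19 and -6.03 at day 2.5 and -5.08, -4.22, -3.87 and -3.02 at day 3, a difference of -0.80 ± 0.80 (limma adjusted p = 0.936). Replicates 1 and 2 of day 2.5 were above every other library, and without replicate 3 the difference was -2.20 ± 0.60 (limma adjusted p = 0.0846). *Ctnnb1* was 7.49, 7.47 and 4.77 against 7.49, 7.85, 7.33 and 7.08, so that its difference was 0.86 ± 0.66 with replicate 3 and -0.04 without it.

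**Figure D4:**
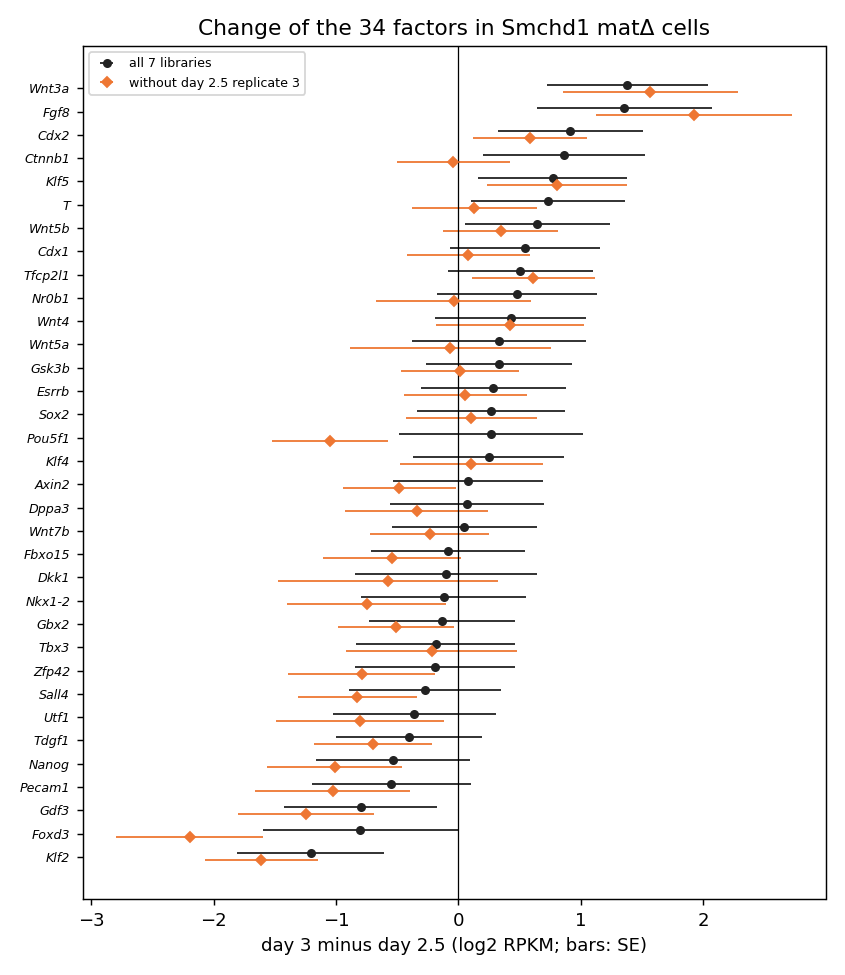
Difference in log2 RPKM between day 3 and day 2.5 (x axis, bars are the SE) of the 34 factors (y axis, ordered by difference), black with all 7 libraries and orange without day 2.5 replicate 3. Leaving out that library took the median from 0.16 to -0.23 and moved *Pou5f1* from 0.26 to -1.05 and *Foxd3* from -0.80 to -2.20.

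Set beside the control cells over the same 12 h, no *Hox* gene passed the test of a difference in change between the genotypes. The interaction term of limma (the *matΔ* change minus the *wt* change) was called for 0 of 39 *Hox* genes (0%), with 0 at an unadjusted p under 0.05 by limma and by limma voom. Of the 27 *Hox1* to *Hox9* genes, 23 had a smaller difference in *Smchd1 matΔ* than in *Smchd1 wt* cells, with a median of 1.56 against 2.38, and the median interaction was -0.83 beside -0.60 over all 39. Single interactions had an SE of 1.06 to 1.51, and the list median has no test here. The control libraries were of uneven depth, from 1983613 to 52833669 reads, and the shallowest, day 2.5 replicate 3, had no read in 23 of the 39 *Hox* genes. Without it 25 of the 27 interactions were negative, with a median of -0.80, and again 0 were called by limma (1 at an unadjusted p under 0.05). Leaving out *matΔ* day 2.5 replicate 3 instead raised the *matΔ* median of these genes to 1.93, nearer to the control 2.38. Again 0 interactions were called by limma. *Hoxc8* had the lowest p: its mean went from -2.27 ± 0.85 (SD, n = 3) to -0.04 ± 1.05 (n = 4) in *matΔ* and from -4.06 ± 1.36 to 0.48 ± 1.46 (n = 4 each) in *wt* cells, an interaction of -2.31 ± 1.24 (limma adjusted p = 0.823). The highest control value at day 2.5 (-2.64) is that of a gene without reads in the shallow replicate 3, and without this library the interaction was -2.78 ± 1.25 (limma adjusted p = 0.935).

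The neighbours in that ranking were *Hoxa13* (1.96 ± 1.20), *Hoxd4* (-1.88 ± 1.20) and *Hoxb9* (-1.81 ± 1.19), each with a limma adjusted p of 0.823. *Hoxb9* was 1.34 ± 0.39 at day 2.5 and 3.18 ± 0.72 at day 3 in *matΔ* cells (SD, n = 3 and 4), and -0.07 ± 0.80 and 3.58 ± 1.78 in *wt* cells (SD, n = 4 each). By day 3 the control range of 1.12 to 5.35 enclosed all 4 *matΔ* libraries. *Hoxc6*, with the largest *matΔ* difference, was 3.16 higher at day 3 in control cells (interaction -0.26 ± 1.27; limma adjusted p = 0.933). It also had no read in control day 2.5 replicate 3, and without that library the control difference was 3.70 and the interaction -0.80 ± 1.26. Leaving out *matΔ* day 2.5 replicate 3 instead, the *matΔ* difference of *Hoxc6* was 3.61, above the control 3.16. The sign thus depended on the library left out. In the same setting *Hoxd4* and *Hoxb9* rose by 2.97 and 2.00 in *matΔ* cells, below the control 3.90 and 3.65.

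**Figure D5:**
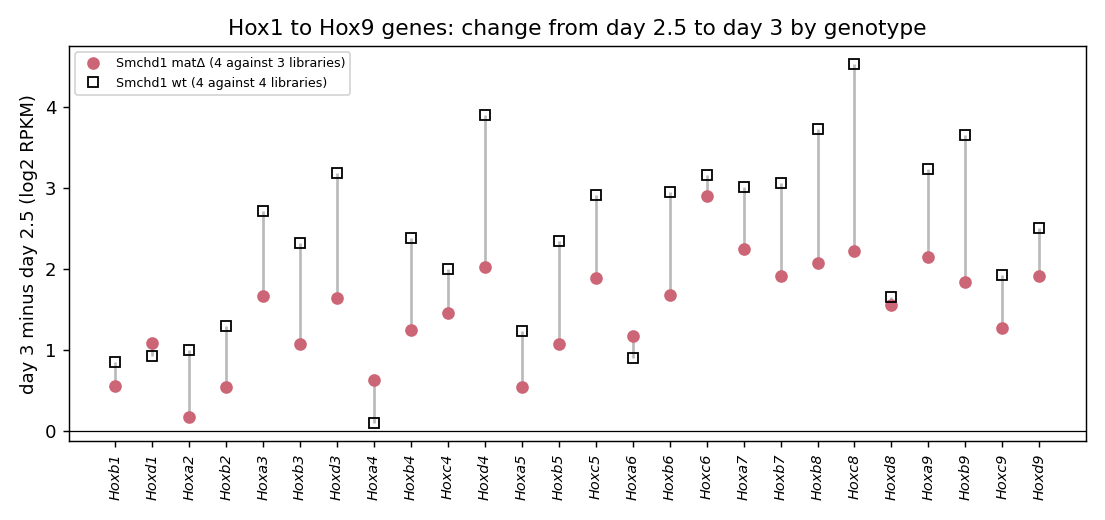
Difference in log2 RPKM between day 3 and day 2.5 (y axis) of 26 *Hox1* to *Hox9* genes (x axis) in *Smchd1 matΔ* (red points, 4 against 3 libraries) and *Smchd1 wt* cells (open squares, 4 against 4), joined by grey lines. The squares lie above the points in 23 genes, and no single difference passed the test of the interaction.

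Among the factors the interaction was called for 0 of 34 (0%), with 1 at an unadjusted p under 0.05 by limma and 1 by limma voom. That gene was *Tdgf1*, which encodes the Nodal co-receptor CRIPTO. It was 4.54, 4.89 and 3.83 log2 RPKM at day 2.5 and 3.41, 4.02, 4.23 and 4.40 at day 3 in *matΔ* cells, so that its mean went from 4.42 ± 0.54 to 4.02 ± 0.43 (SD, n = 3 and 4), and from 5.71 ± 0.99 to 3.62 ± 0.63 in *wt* cells (SD, n = 4 each), an interaction of 1.68 ± 0.74 (limma adjusted p = 0.978). *Wnt3a* (-2.45 ± 1.67) and *Nanog* (0.96 ± 0.78) followed and did not pass. Control day 2.5 replicate 3 held the highest control value of *Tdgf1* (6.80). Without that library the *Tdgf1* interaction was 1.32 ± 0.72, and 0 factors had an unadjusted p under 0.05 by limma. Leaving out *matΔ* day 2.5 replicate 3 instead, *Tdgf1* and *Nanog* changed by -0.70 and -1.01 in *matΔ* cells, against -2.08 and -1.50 in *wt* cells. *Dppa3*, which encodes the germ line and naive state factor STELLA, was 4.37, 3.79 and 2.85 at day 2.5 and 4.18, 3.40, 4.62 and 2.76 at day 3 in *matΔ* cells, with overlapping groups and an interaction of 0.92 ± 0.85 (limma adjusted p = 0.978).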

How the data were processed

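PolyA RNA of 7 *Smchd1 matΔ* and 8 *Smchd1 wt* libraries was read as 75 bp single ends by the authors, who trimmed with Trim Galore 0.4.4, mapped to GRCm38.p6 with HISAT2 2.0.5 and quantified in SeqMonk. The authors deposited log2 RPKM values, corrected for library size and transcript length, for 39 *Hox* genes and 34 factors. Raw counts were not used, since the time course headers of that table are unreliable.

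Groups and replicate numbers came from the labels. Differences (day 3 minus day 2.5, and *matΔ* minus *wt* change) were fitted with limma 3.58.1 in R 4.3.3 on the deposited log2 values, over the compared groups only, with Benjamini-Hochberg adjustment within each table at 0.05. Per-gene summaries used Python 3.11.15. Whole reads were recovered with GENCODE M21 exon lengths, and ranked the 7 libraries as the study's list of mapped reads does. Values in every library were given for *T*, *Sox2*, *Pou5f1* and *Nanog*, the 10 factors with the largest difference, the called *Hox* genes with reads, *Hoxc11*, the first and last gene of each cluster, and up to 4 genes per table with the lowest interaction p. 1 cluster end is not reported here. *Hoxd10*, *Hoxc12* and *Hoxd12*, called with at most 2 reads, were given by their difference. *Hoxa3*, *Hoxb6* and *Hoxc9*, outside this rule, were named after their values were seen. Members and gene lists were chosen with earlier results of these data known.

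Replicate numbers 1 to 3 occur on both days. The correlation over genes of same-numbered libraries' deviations from their group means was 0.328, 0.279 and 0.338 over the 67 genes of both tables with at least 10 reads (0.401, 0.722 and 0.119 over the factors and -0.021, 0.171 and 0.418 over the *Hox* genes alone). Unlike numbers gave -0.476 to 0.203 over the 67 genes and up to 0.303 over the *Hox* genes. Deviations from a mean of 3 libraries push unlike pairs down, so this is weak evidence that the numbers pair libraries. The main fits used no replicate block, and a fit with the block is given as an alternative. Depth limits precision most for the 3 shallow *matΔ* day 3 libraries and, among the controls, for replicate 3 of day 2.5 (1983613 reads) and of day 3 (2111208 reads).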

Additional observations from a re-analysis of the deposited data

Results flagged for a closer look

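In the 4 day 3 libraries, *Wnt5b* was 4.93 log2 RPKM in replicate 2, far above the other 3 (4.53, 4.58 and 4.55) for the width of the group, the only one of 33 genes examined to stand out so. Chance gives about 1 such case in 20 groups, so 1 among 33 is no more than chance would give.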

How the results depend on the processing

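The count of *Hox* genes higher at day 3 (14) was 11 among the 19 genes with a mean above 0 on at least 1 day. All 19 passed that filter at day 3 and only 9 at day 2.5. Genes high at day 3 could thus enter through day 3 alone, and the 11 is no separate support. The count was 13 with log2(RPKM + 0.1) and 12 with a trended prior. It was 3 with log2(RPKM + 1), 0 with a common floor, 0 when all groups of the time course shared 1 spread (2 at an unadjusted p under 0.05), 1 when both tables were fitted together, 9 with voom on recovered reads and 3 with line 1 only. Leaving out 1 library at a time gave 0 to 23, and with log2(RPKM + 0.1), added after seeing the data, 6 to 18 (7 without day 2.5 replicate 1 or day 3 replicate 3). Without day 3 replicate 1, the 23 and the 18 include *Hoxc12*, which had no read in any of these libraries. Fewer libraries and the shared spread change what is tested, and otherwise the cause was not tested. With the replicate number as a block the count was 12, of which 10 were among the 14 (with *Hoxa3* and *Hoxb6* added), and the pairing changed no call among the factors or the interactions. The counts of 0 for the factors and for both interactions stayed at 0 in all alternatives run. No called gene changed sign. Depth limits all *Hox* values near the floor.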

Other observations

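Day 2.5 and day 3 sit inside a longer course of the same cells. GDF11 was added at day 3, so day 4 differs from day 3 in treatment as well as in time. The day 2 cells had not yet had CHIR99021. *Hoxb9* averaged -4.46 ± 2.73 log2 RPKM at day 2 and 4.05 ± 0.32 at day 4 (SD, n = 4 each), on either side of its 1.34 and 3.18 at days 2.5 and 3. Its day 2 values ran from -8.35 to -2.41 in libraries of 10279130 to 126805800 reads. Values so near the floor depend on depth, so the size of the step from day 2 is uncertain. *Hoxb8* averaged 1.93 ± 0.94 at day 4, under its 2.30 ± 0.51 at day 3, a gap smaller than the spread between libraries. *Hoxc6* averaged 2.68 ± 0.98 at day 4, above all 4 day 3 libraries, of which the highest was 0.92. These means were not tested.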
